A study of Mus musculus with 2 samples.

Results

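The genes described here drive chromosome duplication and cell division. They are 36 named genes, 19 of mitosis and 17 of DNA replication and the entry into S phase, listed by name, with no threshold on their values in these samples. On the array, 33 of them had a probe whose RefSeq accession matched, among 18942 genes named in the same way. No probe matched Prc1, which encodes a bundler of midzone microtubules, Rrm2, a subunit of ribonucleotide reductase, or Ccnd1, cyclin D1, and their expression was not analysed here. Where a gene had several probes, the probe with the highest mean intensity over both arrays was used.

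Dorsolateral prostate of FVB/N mice aged 6 months was profiled on 2-colour Agilent arrays. The ARR2PB-miR32 transgenic pool held RNA of 6 mice that expressed the microRNA miR-32 from ARR2PB, a composite probasin promoter active in androgen-responsive prostate epithelium, and the wild-type pool held RNA of 6 mice without the transgene. Both pools shared 2 arrays of 1 slide, with the transgenic pool in Cy3 and the wild-type pool in Cy5 on array 1 and the dyes exchanged on array 2. The comparison asked what miR-32 expression does to the prostate transcriptome. Each genotype was 1 pool, so the arrays repeat the same RNA, no p-value can be given for genotype, and each ± is the SD over the 2 arrays. Ratios are log2 of the transgenic pool over the wild-type pool, and a call required at least 1.5-fold in 1 direction on each of the arrays.

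Chromosome replication starts when the MCM helicase is loaded at origins by Cdc6 and Cdt1 and is then fired together with the GINS complex, after which polymerases work on the sliding clamp PCNA. Mitosis is driven by cyclin B bound to Cdk1, with the Aurora and Polo kinases building the spindle, the Bub proteins holding the checkpoint, and Cdc20 turning on the anaphase-promoting complex that ends it. E2F factors raise the replication genes near S phase, while the mitotic genes are raised later by B-MYB, FOXM1 and the MuvB core acting at promoter elements named CHR. In the adult prostate few cells divide, so transcripts of this kind are scarce in whole tissue.

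The transgene product and a second microRNA are shown first because they share a seed and because the second lies inside a gene described here. In mature mmu-miR-32-5p and mmu-miR-25-3p the capitals mark the seed, bases 2 to 8, which reads AUUGCAC in both. The sequence of miR-32 lies within Tmem245 and that of miR-25 within Mcm7, whose product is a subunit of the replicative helicase. Sequences and positions are from RefSeq, build GRCm38.p6.
mmu-miR-32-5p, chr4:56895272-56895293, minus strand: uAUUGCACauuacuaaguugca
mmu-miR-25-3p, chr5:138165332-138165353, minus strand: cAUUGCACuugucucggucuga

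The promoters of the 2 sets of genes differed in the elements they held. RefSeq windows of 250 bases before to 50 after the start site were found for 14 of the 19 mitosis genes (15 windows) and 13 of the 17 replication genes (14 windows). A CHR element, searched as TTTGAA or TTCGAA on both strands, was present in 13 mitosis windows (86.7%) and 2 replication windows (14.3%), against 19.2% of all 32851 windows. An E2F site, searched as TTTGGCGC, TTTCCCGC, TTTGCCGC or TTTCGCGC on both strands, was present in 1 mitosis window (6.67%) and 6 replication windows (42.9%), against 2.26% of all windows. The CCAAT box bound by NF-Y was present in 14 mitosis windows (93.3%) and 9 replication windows (64.3%), against 37.4% of all windows. Both windows of Prc1 cover the same element, so the windows are not independent, and matches were read as letters only.

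**Figure D1:**
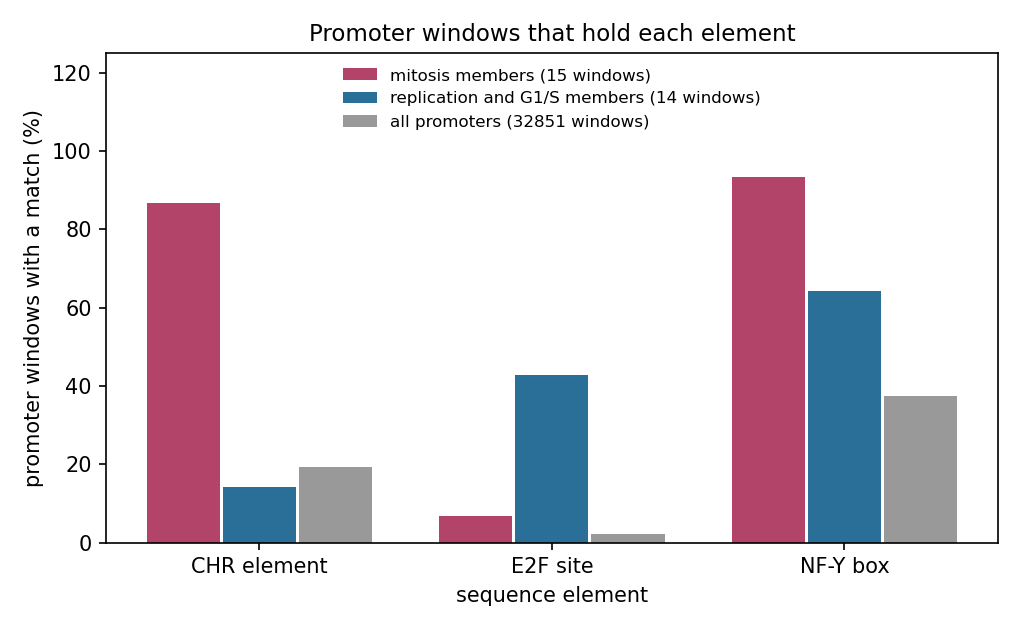
Share of promoter windows (%, y axis) that hold a CHR element, an E2F site or an NF-Y box, with bars for the mitosis genes, the replication and G1/S genes and all promoters. The CHR bar reaches 86.7% for mitosis and 14.3% for replication, and the E2F bar 6.67% and 42.9%.

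The CHR stretches below belong to the mitosis genes that were detected on the arrays, Birc5 excepted, whose window held no such match. Capitals mark the match nearest the start site, with 17 bases on either side where the window allows.
Mki67, chr7:135716455-135716494, minus strand: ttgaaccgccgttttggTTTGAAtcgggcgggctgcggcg
Ccnb2, chr9:70421528-70421567, minus strand: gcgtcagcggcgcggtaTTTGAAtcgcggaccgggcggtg
Aurka, chr2:172370521-172370555, minus strand: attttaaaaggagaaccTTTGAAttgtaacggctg
Bub1, chr2:127831823-127831862, minus strand: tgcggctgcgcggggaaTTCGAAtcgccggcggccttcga
Plk1, chr7:122159448-122159484, plus strand: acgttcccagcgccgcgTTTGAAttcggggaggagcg
Cdc20, chr4:118437339-118437378, minus strand: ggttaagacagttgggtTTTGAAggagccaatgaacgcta

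The E2F stretches belong to the detected replication genes with a match, and capitals again mark the match nearest the start site.
Mcm5, chr8:75109343-75109384, plus strand: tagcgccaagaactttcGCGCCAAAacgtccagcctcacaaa
Mcm6, chr1:128359728-128359769, minus strand: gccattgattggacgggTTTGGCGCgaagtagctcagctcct
Mcm7, chr5:138171843-138171884, minus strand: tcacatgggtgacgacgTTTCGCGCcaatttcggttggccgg
Cdt1, chr8:122568030-122568064, plus strand: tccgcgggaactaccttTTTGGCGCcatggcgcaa

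Mcm7 and Pcna were the only replication genes measured in both pools on both arrays, so their windows are given whole. Capitals mark every CHR, E2F and CCAAT match on either strand. The Mcm7 window held 1 CHR, 2 E2F and 3 CCAAT matches, of which 1 E2F and 1 CCAAT match run into each other, whereas the Pcna window held 1 CCAAT match alone. Mcm7 has another start site in the table, whose window held 1 CCAAT match.
Mcm7, chr5:138171834-138172133, minus strand: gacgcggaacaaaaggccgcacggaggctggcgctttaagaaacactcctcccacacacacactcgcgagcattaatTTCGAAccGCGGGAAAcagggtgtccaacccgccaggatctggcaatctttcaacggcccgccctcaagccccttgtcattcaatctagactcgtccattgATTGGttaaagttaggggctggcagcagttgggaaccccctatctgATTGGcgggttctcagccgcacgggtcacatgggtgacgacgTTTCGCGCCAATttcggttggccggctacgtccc
Pcna, chr2:132253131-132253430, minus strand: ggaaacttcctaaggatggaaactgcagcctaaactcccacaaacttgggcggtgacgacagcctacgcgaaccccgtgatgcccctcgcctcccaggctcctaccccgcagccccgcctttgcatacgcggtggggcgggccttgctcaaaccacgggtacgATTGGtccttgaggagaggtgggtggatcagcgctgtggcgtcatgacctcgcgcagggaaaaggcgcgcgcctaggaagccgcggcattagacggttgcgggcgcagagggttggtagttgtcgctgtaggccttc

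Many of these genes lay near the limit of what the arrays could read, as did many of all named genes. A channel was taken as measured when the scanner software called the spot well above background. By this mark 3 of 33 genes, Bub1, Mcm7 and Pcna, were measured on both arrays for the transgenic pool, against 17 of 33 for the wild-type pool. Of all named genes 32.0% were so measured for the transgenic pool and 54.9% for the wild-type pool, against shares of the members of 9.09% for the transgenic pool and 51.5% for the wild-type pool. On array 2 the transgenic pool was in Cy5, the weaker channel, where 3 of 33 members were measured and 32.0% of all named genes were. In Cy3, the stronger dye on both arrays, the same 23 genes were measured for the transgenic pool on array 1 and for the wild-type pool on array 2. By that dye 69.7% of the members were measurable in each pool, against 67.8% of all named genes in the transgenic pool and 67.7% in the wild-type pool.

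The replication and mitosis genes were counted apart, and the difference between them was not tested. In Cy3, 13 of 15 replication genes and 10 of 18 mitosis genes were well above background in each pool. Counted over both arrays for the wild-type pool, they were 10 of 15 and 7 of 18, against 54.9% of all named genes. For 10 genes the brightest probe was well above background in no channel of either pool. These were the cyclins Ccnb1 and Ccna2, their kinase Cdk1, the Aurora B kinase gene Aurkb, the checkpoint kinase gene Bub1b, the spindle motor Kif11, the spindle assembly factor Tpx2, the centromeric histone Cenpa, the helicase subunit Mcm3 and the origin licensing factor Cdc6. For these 10 no fold is given. A second, dimmer probe of Cdc6 was well above background in 1 channel, Cy3 of the wild-type pool, at a net intensity of 18.

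**Figure D2:**
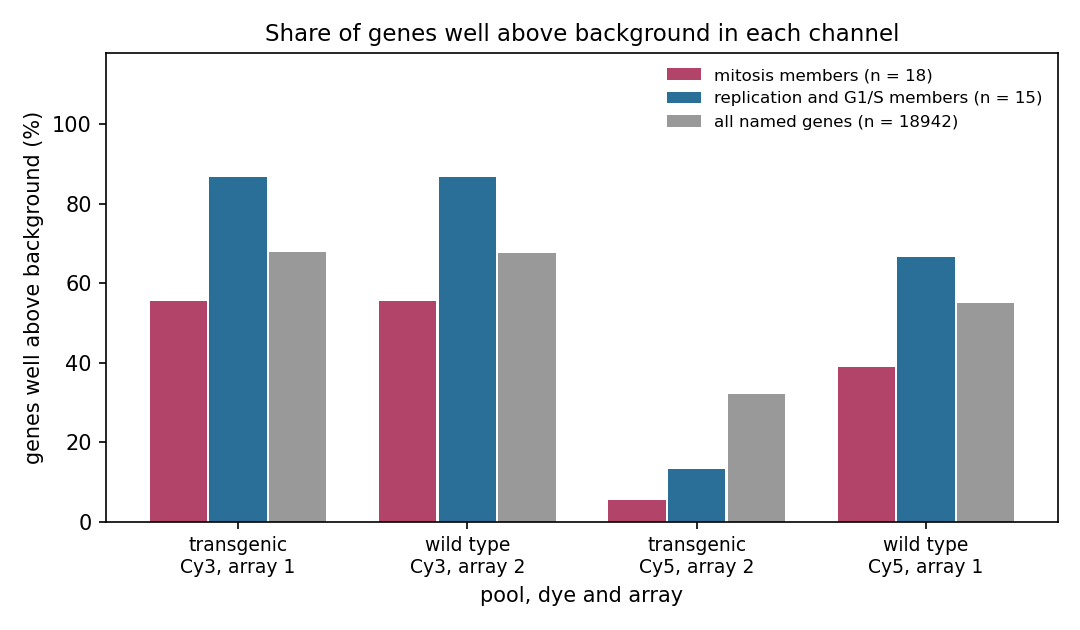
Share of genes well above background (%, y axis) in each pool, dye and array, with bars for the mitosis genes, the replication and G1/S genes and all named genes. In Cy3 the bars of the transgenic and wild-type pools stand at the same heights for the members, and the Cy5 bars of the transgenic pool on array 2 are the shortest, at 5.56% and 13.3%.

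The other 6 genes were well above background in Cy3 of both pools but not in Cy5 of either. They were the topoisomerase gene Top2a, the cytokinesis motor Kif20a, the transcription factors Foxm1 and E2f1, the polymerase epsilon gene Pole and the GINS subunit gene Gins2. In net intensity, spot minus local background, Top2a stood at 34 in Cy3 of the transgenic pool and 25.5 in Cy3 of the wild-type pool. Kif20a stood at 18 in the transgenic pool and 16 in the wild-type pool. The transgenic pool gave 17.5 for Foxm1, 25.5 for E2f1, 23 for Pole and 34.5 for Gins2, against 26, 42.5, 27 and 53 for the same genes in the wild-type pool. Top2a and Kif20a were thus the brighter in the transgenic pool and the other 4 in the wild-type pool, before any scaling between arrays. A dimmer E2f1 probe, printed 10 times, ran the other way, at 29.55 in the transgenic pool and 25.85 in the wild-type pool. A dimmer Top2a probe, well above background in no channel, also ran against the first, at 11.5 in the transgenic pool and 19 in the wild-type pool.

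No detected member passed the rule. A gene counts as detected when 1 or both pools were measured on each array. Of the 17 genes detected, the transgenic pool was higher for 0 and lower for 0, against 0.913% and 1.31% of the 10402 detected genes of the array. A share of 0 among 17 genes is near these background shares. All 17 were detected through the wild-type pool, which favours genes that are brighter there. The medians below, and the counts of ratios below 0, therefore describe the genes and support no direction. In whole tissue, a change in the number of dividing cells and a change in RNA per dividing cell cannot be told apart.

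**Figure D3:**
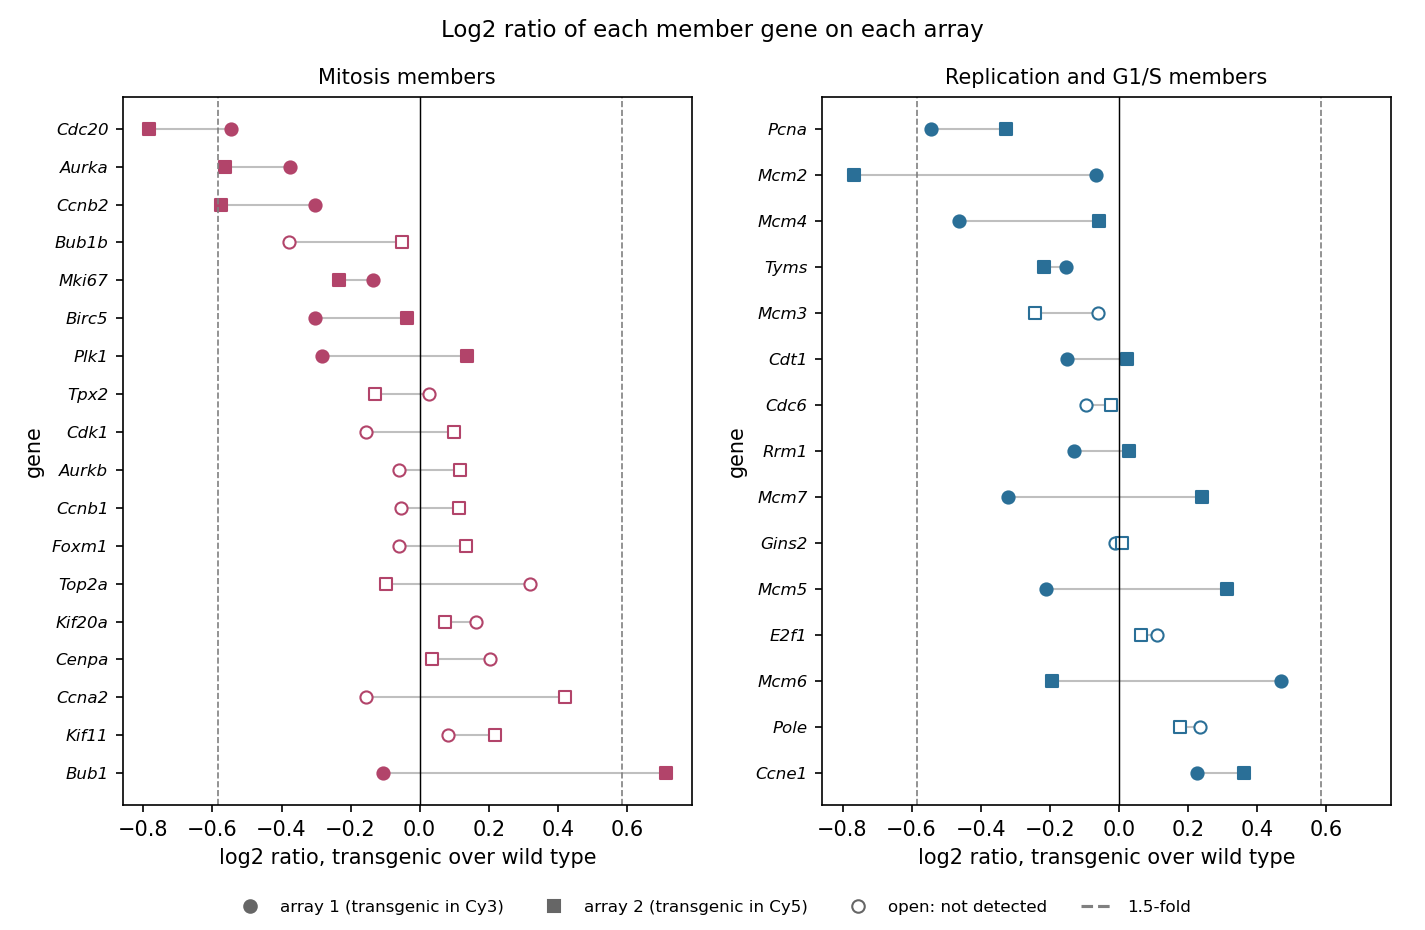
Log2 ratio of the transgenic over the wild-type pool (x axis) for each of the 33 genes, circles for array 1 and squares for array 2, filled where the gene was detected and open where it was not, with dashed lines at 1.5-fold. No filled pair lies beyond a dashed line on both arrays, and Cdc20 comes closest at −0.55 and −0.78.

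Among the mitosis genes, Cdc20, the activator of the anaphase-promoting complex, had the lowest mean. Its net intensity was 35 in Cy3 and −9 in Cy5 for the transgenic pool, against 65.5 in Cy3 and 90 in Cy5 for the wild-type pool. The transgenic pool was the dimmer in each dye and was measured on array 1 only. The log2 ratio was −0.55 on array 1 and −0.78 on array 2, a mean of −0.66 ± 0.17. In Cy3 alone, after quantile scaling of the Cy3 channels of the arrays, it was −0.26. With a smaller background offset of 16 Cdc20 passed the rule at −0.78 and −1.54, as the single member among 2.30% of detected genes that were lower there, with 1.43% higher.

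Aurka, the Aurora A kinase of the spindle poles, and Ccnb2, cyclin B2, lay next. The net intensity of Aurka was 36 in Cy3 and −3.5 in Cy5 for the transgenic pool, against 55 in Cy3 and 74 in Cy5 for the wild-type pool, with a ratio of −0.47 ± 0.13. Ccnb2 read 25 and −4.5 in the transgenic pool, against 44.5 and 51 in the wild-type pool, in Cy3 and Cy5, with a ratio of −0.44 ± 0.19. Both genes had a ratio below 0 on each array, and the transgenic Cy5 spots of both were at or under the local background. Their Cy3 ratios were smaller, −0.13 for Aurka and −0.19 for Ccnb2.

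Mki67, which encodes the proliferation antigen Ki-67 that coats mitotic chromosomes, read 32.5 in Cy3 and 6.5 in Cy5 in the transgenic pool, against 63.5 in Cy3 and 48 in Cy5 in the wild-type pool. Its log2 ratio was −0.18 ± 0.07 over the arrays and −0.28 in Cy3. A second, dimmer probe of Mki67 gave 0.12 and −0.48 on the 2 arrays, so the probes differed in sign on array 1. Birc5, the survivin of the chromosomal passenger complex, read 43.5 and 17 in the transgenic pool, against 91 and 78.5 in the wild-type pool, in Cy3 and Cy5, and stood at −0.17 ± 0.19. With the log ratios computed by the scanner software, Mki67 (−0.61 and −0.64), Ccnb2 (−0.92 and −0.78) and Birc5 (−0.67 and −0.64) passed the rule. That setting called 5.97% of detected genes lower and 2.36% higher, and 3 of 17 members lower and 0 higher. For all 3 the transgenic pool was measured on array 1 only.

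Plk1, the Polo-like kinase, had ratios of opposite sign on the arrays, −0.28 and 0.14, as did 54.6% of detected genes. Bub1, the checkpoint kinase at kinetochores, was the mitosis gene with the brightest signal and also disagreed between arrays. Its net intensity was 587.5 in Cy3 and 325 in Cy5 for the transgenic pool, against 944 in Cy3 and 806.5 in Cy5 for the wild-type pool. The log2 ratio was −0.11 on array 1 and 0.71 on array 2 (0.30 ± 0.58). On array 2 alone it would have been past 1.5-fold, as were 5.23% of detected genes in that direction. The other Bub1 probe, which carries another transcript accession, read 11.5 and −4 in the transgenic pool, against 6 and 18 in the wild-type pool, in Cy3 and Cy5, and was not well above background in any channel. The measurement of Bub1 therefore rests on 1 probe.

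Pcna, the sliding clamp of the replicative polymerases, was the best measured gene of the set, with 10 spots on each array. Its mean net intensity was 293 in Cy3 and 80.2 in Cy5 for the transgenic pool, against 558 in Cy3 and 585 in Cy5 for the wild-type pool. The log2 ratio was −0.54 on array 1, with an SD of 0.25 between spots, and −0.33 on array 2, with an SD of 0.39 between spots. The mean of −0.44 ± 0.15 amounts to 1.35-fold lower in the transgenic pool, under the 1.5-fold rule. In Cy3 alone the ratio was −0.41, and without background subtraction the mean was −0.36. The authors' deposited table gives Pcna −0.67 and −0.42 on the 2 arrays.

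The MCM subunits, which form 1 ring-shaped helicase, gave mixed values. Mcm7, the host gene of miR-25, read 213 in Cy3 and 75.5 in Cy5 in the transgenic pool, against 312 in Cy3 and 350 in Cy5 in the wild-type pool. Its ratios were −0.32 and 0.24, a mean of −0.04 ± 0.40. Mcm2 stood at −0.07 and −0.77, Mcm4 at −0.46 and −0.06, Mcm5 at −0.21 and 0.31, and Mcm6 at 0.47 and −0.19 on arrays 1 and 2. Of these 5 subunits, 2 were below 0 on both arrays and 3 differed in sign between them. Opposite signs were as common over the whole array, at 54.6% of detected genes. Over all detected genes the Pearson correlation between the ratios of the 2 arrays was −0.03, which limits every mean given here. Mcm2 was past 1.5-fold on array 2 alone, where its transgenic Cy5 signal was −5 and 15% of detected genes were past it in that direction. In Cy3 alone the 5 subunits lay between −0.34 for Mcm5 and 0.04 for Mcm6.

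Tyms, Rrm1 and Cdt1, of nucleotide supply and origin licensing, were measured for the transgenic pool on array 1 only. Their array 2 ratios therefore rest on Cy5 signals near background. Tyms, thymidylate synthase, read 113.5 in Cy3 and 20 in Cy5 in the transgenic pool, against 158 in Cy3 and 163 in Cy5 in the wild-type pool, with a ratio of −0.18 ± 0.04. Its other detected probe gave −0.17 and 0.07, and with the log ratios of the scanner software the first probe gave 0.06 and −1.45. Rrm1, the large subunit of ribonucleotide reductase, stood at −0.05 ± 0.11. Cdt1, the licensing factor that loads the helicase, stood at −0.06 ± 0.12.

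Ccne1, cyclin E1, which activates Cdk2 at the start of S phase, was above 0 on both arrays. It read 75 in Cy3 and 31 in Cy5 in the transgenic pool, against 77 in Cy3 and 67 in Cy5 in the wild-type pool. The transgenic Cy5 signal was not well above background. The ratio was 0.29 ± 0.10 over the arrays and 0.17 in Cy3 alone. Its sign did not hold under other settings, since array 1 gave −0.07 with the log ratios of the scanner software and array 2 gave −0.15 with median centring. A second Ccne1 probe was not well above background in any channel.

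The 7 detected mitosis genes ranged from −0.66 to 0.30 with a median of −0.18 (−0.30 and −0.23 on arrays 1 and 2), and the 10 detected replication and G1/S genes from −0.44 to 0.29 with a median of −0.06 (−0.15 and −0.02). The median of all detected genes was −0.06. Ratios were below 0 on both arrays for 5 of the 7 mitosis genes and 4 of the 10 replication genes, against 27.9% of detected genes. Over every matched gene, detected or not, the medians were −0.00055 for 18 mitosis genes and −0.05 for 15 replication genes. The value for the mitosis genes thus depends on which of them are let in. The difference between the 2 groups was not tested.

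**Figure D4:**
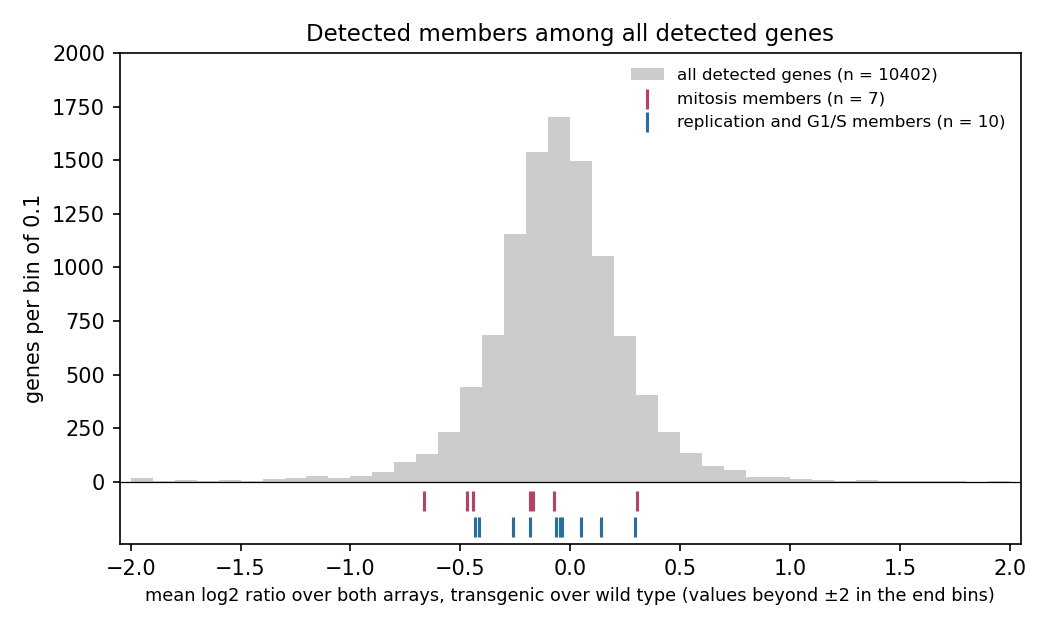
Mean log2 ratio over both arrays (x axis) of all 10402 detected genes as a histogram of genes per bin, with ticks below it for the 7 detected mitosis genes and the 10 detected replication and G1/S genes. The members lie between −0.66 and 0.30, inside the body of the distribution, whose 5th and 95th percentiles are −0.54 and 0.43, except Cdc20.

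The Cy3 channels allow the pools to be set side by side in the same dye, although on different arrays. All 15 replication genes and 13 of 18 mitosis genes had a lower net Cy3 intensity in the transgenic pool, as did 72.2% of all named genes, so a lower raw signal was the common case. After quantile scaling, 7 of 7 detected mitosis genes and 8 of 10 detected replication genes were below 0, against 54.0% of detected genes. Their medians were −0.26 and −0.07. Detection came through the wild-type pool, which favours genes that are brighter there, so these counts support no direction. Among the genes measured in Cy3 only, Top2a (0.22) and Kif20a (0.08) were above 0 and Pole was at 0. Foxm1 (−0.09), E2f1 (−0.16) and Gins2 (−0.14) were below 0. None of the 17 reached 1.5-fold in Cy3, where 7.09% of detected genes were lower by that much and 6.13% higher. This comparison was added after the values were seen.

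**Figure D5:**
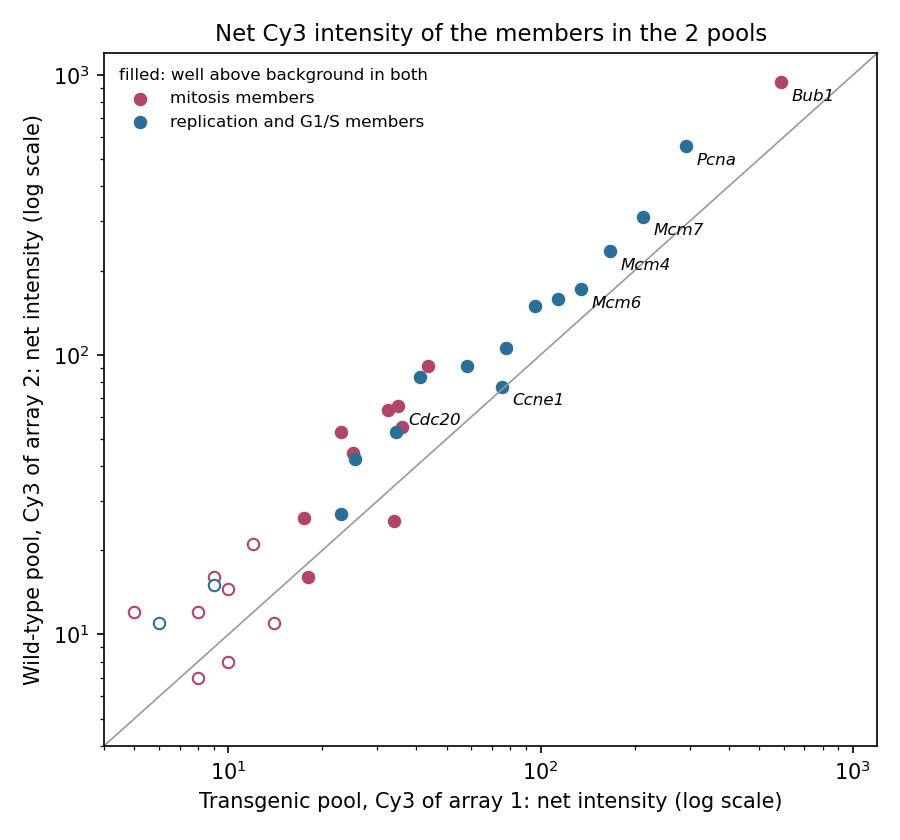
Net Cy3 intensity of the 33 genes in the transgenic pool on array 1 (x axis, log scale) and in the wild-type pool on array 2 (y axis, log scale), filled where well above background in both, with a line of equal intensity. Most points lie above the line, as do 72.2% of all named genes, and Bub1, Pcna and Mcm7 are the brightest.

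Other genes of the same pathways gave no call either. Of 46 further mitosis genes 45 had a probe and 14 were detected, with 0 higher, 0 lower and a median of −0.01. Spc25, a subunit of the kinetochore NDC80 complex, stood at −0.42 ± 0.18, Cdca3, a trigger of mitotic entry, at −0.25 ± 0.03, and Ndc80 itself at 0.27 ± 0.70. Tacc3, a spindle microtubule protein, stood at 0.24 ± 0.37. Of 46 further replication genes 45 had a probe and 28 were detected, again with 0 higher and 0 lower, and a median of −0.10. Tk1, thymidine kinase, stood at −0.42 ± 0.33, Hells, a chromatin remodeller of dividing cells, at −0.29 ± 0.15, and the clamp loader subunit Rfc4 at −0.38 ± 0.78. Rfc2, another clamp loader subunit, gave 1.46 and −0.92 on the 2 arrays and so no direction. For Spc25, Cdca3, Tk1, Hells and Rfc4 the transgenic pool was measured on array 1 only. Their transgenic Cy5 net intensities on array 2 were 7.5, 3, 10, 6 and −3, so their means rest in part on signals near background.

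Of 24 regulators of G1 and of the E2F and MuvB complexes, 17 were detected, with 0 calls and a median of −0.15. Ccnd2, cyclin D2, stood at −0.33 ± 0.29, Cdk4, its kinase, at −0.25 ± 0.59, the pocket protein gene Rbl1 at −0.37 ± 0.21 and the repressor E2f5 at −0.27 ± 0.17. For Rbl1 and E2f5 the transgenic pool was measured on array 1 only, with Cy5 net intensities of −4 and 12 on array 2. Of 7 CDK inhibitor genes 5 were detected with 0 calls and a median of −0.20. Cdkn1b, which encodes p27, was the one above 0 on both arrays, at 0.32 and 0.50 (0.41 ± 0.13), and was 0.03 in Cy3 alone. Its array 2 ratio was −0.08 with the log ratios of the scanner software and −0.16 with median centring. Cdkn1a, encoding p21, stood at −0.20 ± 0.02, Cdkn2c at −0.28 ± 0.48 and Cdkn2d at −0.24 ± 0.10. The CDK inhibitors named here were measured for the transgenic pool on array 1 only. In Cy3 alone Cdkn1a was −0.61 and Ccnd2 −0.77. By that dye 3 of the 17 G1 regulators and 1 of the 5 inhibitors were at least 1.5-fold lower and 0 higher, against 7.09% and 6.13% of detected genes.

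The pools differed in markers of other cells. On both arrays 10 of 11 luminal prostate markers were measured for the transgenic pool and 11 of 11 for the wild-type pool, and 0 of 6 seminal vesicle genes were detected. Of the luminal markers 2 were lower, Msmb at −1.12 and −0.59 and Hoxb13 at −0.71 and −0.67 on the 2 arrays, and 0 were higher. Another 2, Tgm4 at 0.25 and 1.16 and Cd24a at 0.26 and 1.03, were above 0 on both arrays without a call. The luminal median was −0.02. Of 11 detected immune markers 5 were lower and 0 higher, with a median of −0.74. The 5 were Cd74, H2-Aa, H2-Ab1, C1qc and Jchain. The call of H2-Ab1 did not hold with the scanner software's log ratios, at −2.60 and 0.32, or in the authors' deposited table. Ptprc, C1qa, C1qb, Lyz2, Cd79b and Cd3e were not called, and Cd3e had a mean of 0.12. The whole immune list of 15 summed to net intensities of 683 to 1696 in the transgenic pool, against 7939 to 13691 in the wild-type pool. Cd8a was well above background in no channel. Of 4 detected adipocyte markers 3 were lower and 0 higher, with sums of 175.5 to 1457 in the transgenic pool, against 8008 to 9468 in the wild-type pool, and Lep well above background in no channel. The part of these cells in the values of the members was not tested. Of 5 detected basal markers, 6 fibroblast markers, 5 smooth muscle markers and 3 endothelial markers 0 were called. Over all detected genes 1.31% were lower and 0.913% higher. The sums are raw and take in both dyes. Over all named genes they were 3.16e+06 to 1.06e+07 in the transgenic pool, against 1.37e+07 to 1.54e+07 in the wild-type pool.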

How the data were processed

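Total RNA was labelled for 2-colour arrays, per the labels' protocols. The scanner software was Feature Extraction, version 11.0.1.1, per the file headers. Spot and background intensities were deposited as pixel medians in each dye, before any subtraction. The software's own log ratio was deposited in log10 units, with Cy5 on top, per the file headers. A value table deposited by the authors (8533 probes) holds log2 ratios of transgenic over wild type, centred on 0 for each array. Its direction and scale were found from the scanner values, and no source used here gives its filter.

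Intensities were corrected by normexp with an offset of 50, normalized by loess within arrays, and averaged over spots of a probe, without control and outlier spots, in limma 3.58.1 under R 4.3.3. The offset draws the ratios of dim genes towards 0. Of 41174 probes, 27808 matched 1 gene symbol through RefSeq accessions (GRCm38.p6). The array was annotated on another build, so only RefSeq positions of printed sequences are given. The share of spots well above background was 58.3% (array 1) and 57.0% (array 2) in Cy3, and 42.1% and 21.1% in Cy5. Saturation was absent. Precision is limited by the number of arrays, and log2 ratios of repeated spots of 1 probe varied with a median SD of 0.17 (array 1) and 0.23 (array 2). The normalization was tested with known folds put into measured probes that were well above background in every channel. That test does not cover the dimmer members. All members are accounted for, and from each further pathway list the text names up to 4 detected genes with the largest absolute mean and any called gene. The members and lists were chosen with earlier results of these data known. Figures were drawn with matplotlib 3.10.9 in Python 3.11.15.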

Additional observations from a re-analysis of the deposited data

How the results depend on the processing

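The 2 arrays repeat 1 pair of pools, so no alternative measures the spread between animals, and the weak Cy5 channel of array 2 limits the array 2 ratios and the means that use them. The count of members past the rule stayed at 0 in each direction without background subtraction, with median centring and with scaling between arrays. It also stayed at 0 without a filter and with the mean over probes. At 2-fold and with detection in both pools the ratios are the same, so those settings could not raise the count. The authors' deposited table also gave 0, but of the members it holds only Bub1, Mcm7 and Pcna. The count was 1 lower with an offset of 16 (Cdc20) and 3 lower with the scanner software's log ratios (Mki67, Ccnb2 and Birc5). Leaving out 1 array gave 0 to 1 higher (Bub1) and 0 to 2 lower (Cdc20 and Mcm2), the larger counts on array 2 alone. The mitosis median of −0.18 became −0.10 without background subtraction, −0.31 with an offset of 16, −0.63 with the scanner software's log ratios, −0.00055 without a filter and −0.26 in Cy3 alone, a setting added after seeing the data. It was 0.38 in the authors' deposited table and 0.30 with detection in both pools, where Bub1 is the only mitosis gene left. The replication median of −0.06 became −0.30 with the scanner software's log ratios. It was −0.35 in the authors' deposited table and −0.24 with detection in both pools, where Mcm7 and Pcna are left in each case. Median centring moved the median of all detected genes to −0.57, the mitosis median to −0.40 and the replication median to −0.50, so both lay above that shift. Leaving out 1 array gave −0.30 to −0.23 for mitosis and −0.15 to −0.02 for replication. Where fewer genes do not account for a move, the cause was not tested. Over the 33 matched genes, detected or not, 164 of 234 values under other settings stayed within 1 SD of the main ratio and 70 did not. Leaving out 1 array was not counted there. The SD is that between the arrays and is wide where they disagree, so this count does not measure how stable a ratio is. Counts of genes well above background were 3 and 17 in the transgenic and wild-type pools, also with any probe of a gene. No paired analysis was possible because the 2 arrays hold the same pair of pools.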
